A study of Mus musculus with 3 samples.

Results

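The 36 genes described here are type I interferon-stimulated genes of the mouse, a list taken by symbol from the 28692 genes of the expression matrices. All 36 were found in the matrices and in the gene annotation. They were followed in 3 single-cell libraries of the stromal vascular fraction of inguinal fat, the cells left when adipocytes are removed from digested fat beneath the skin of the groin. All mice were of the C57BL/6 strain. The saline library came from mice given saline, and the labels used here do not say for how long. The cold library came from mice kept at 4 C for 3 days. The CL library came from mice given CL 316,243, an agonist of the β3-adrenergic receptor, into the peritoneum at 1 mg/kg for 3 days. The number and sex of the animals behind each library, and whether the mice in the cold were injected, are not stated in them either. Each condition is 1 library, so no difference between conditions can be set against replicate error, and the intervals given cover counting error only.

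Type I interferons are secreted proteins that bind a receptor on nearly every cell type. The receptor's kinases phosphorylate STAT2, which acts with IRF9 at a promoter element called the interferon-stimulated response element. The genes switched on in this way detect viral nucleic acid, block viral replication or tune the response itself. The 36 genes fall into 7 groups by role. Stat2, Irf9 and Irf7 encode transcription factors of the pathway. Ifih1 (MDA5), Ddx58 (RIG-I), Dhx58 (LGP2), Zbp1 and Ifi204 encode sensors of RNA or DNA. Oas1a, Oas2, Oas3, Oasl1 and Oasl2 belong to the oligoadenylate synthetase family, whose active enzymes switch on an RNA-cutting nuclease. Ifit1, Ifit2, Ifit3 and Ifit1bl1 belong to a family of RNA-binding proteins. Isg15 encodes a ubiquitin-like protein, Usp18 the protease that removes it and dampens the receptor, and Herc6 its ligase in the mouse. The 12 other effectors are Mx1, Rsad2 (viperin), Cmpk2, Bst2 (tetherin), Rtp4, Ifi44, Ifi27l2a, Rnf213, Trim30a, Parp14, Xaf1 and Ifi35. Slfn1, Slfn4, Slfn5 and Slfn8 are Schlafen genes.

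The members lie on 14 chromosomes, in part as neighbours (GENCODE M21 annotation, build GRCm38). The 4 Ifit genes lie within 99.3 kb of chromosome 19 (34550694 to 34650009). Oas1a, Oas2 and Oas3 lie within 177 kb of chromosome 5 (120730333 to 120907521), and Oasl1 and Oasl2 within 41.0 kb of the same chromosome (114896936 to 114937915). The 4 Schlafen genes lie within 239 kb of chromosome 11 (82951349 to 83190216), and Rsad2 and Cmpk2 within 37.1 kb of chromosome 12 (26442746 to 26479837). Single members used most below are Isg15 on chromosome 4 (156199424 to 156200818), Irf7 on chromosome 7 (141262706 to 141266481), Ifi27l2a on chromosome 12 (103442167 to 103443680) and Bst2 on chromosome 8 (71534255 to 71537456). Several members have near-identical neighbours or copies, among them Ifit3, Ifit1bl1, Oas1a, Ifi204, Slfn8 and Trim30a, and reads could be split between copies, so their levels are uncertain.

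Promoters, taken as the 250 bases before to the 50 bases after each start site in RefSeq (GRCm38.p6), were matched for 27 of the 36 members. The core of the interferon-stimulated response element was searched as GAAA, any 2 bases and GAAA on both strands, with overlapping matches allowed. It was found in 14 of the 27 members (51.9%), against 3.99% of 27025 genes. Those without it were Cmpk2, Herc6, Ifi35, Ifi44, Ifit2, Irf7, Irf9, Oasl1, Oasl2, Rnf213, Slfn1, Slfn4 and Xaf1. Ifi27l2a was not among the members with a promoter. The gamma-activated site, searched as TTCNNNGAA, was found in 4 of the 27 (14.8%), against 9.55% of genes. A match is a description of the letters and not evidence of binding. The 7 windows of 80 bases below are written 5′ to 3′ on the gene's strand with each match in capitals. They were picked from members with a match that are used below, because the arrangement of their matches differs. The matches in the Isg15 window (chr4:156200846-156200925, minus strand) overlap in a run of 3, those in Bst2 (chr8:71537555-71537634, minus strand) overlap as a pair, and those in Ifit1 (chr19:34640759-34640838, plus strand) and Ifit3 (chr19:34583355-34583434, plus strand) are 2 separate matches on the opposite strand. Rsad2 (chr12:26456528-26456607, minus strand), Oas3 (chr5:120777690-120777769, minus strand) and Stat2 (chr10:128270248-128270327, plus strand) each have 1 match.
Isg15: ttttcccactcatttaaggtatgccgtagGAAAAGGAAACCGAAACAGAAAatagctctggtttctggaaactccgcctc
Ifit1: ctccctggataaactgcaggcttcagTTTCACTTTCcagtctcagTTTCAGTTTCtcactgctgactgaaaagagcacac
Ifit3: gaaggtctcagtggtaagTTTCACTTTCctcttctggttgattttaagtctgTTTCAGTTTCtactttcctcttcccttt
Rsad2: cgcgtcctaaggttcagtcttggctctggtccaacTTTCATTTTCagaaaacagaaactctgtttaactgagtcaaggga
Oas3: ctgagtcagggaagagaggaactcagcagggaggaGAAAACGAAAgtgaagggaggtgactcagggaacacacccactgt
Stat2: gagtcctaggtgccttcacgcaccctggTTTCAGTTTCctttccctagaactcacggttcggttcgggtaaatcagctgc
Bst2: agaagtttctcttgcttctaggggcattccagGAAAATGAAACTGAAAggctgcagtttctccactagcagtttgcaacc

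After barcodes with fewer than 500 genes or more than 15% mitochondrial counts and called doublets were left out, 6185 saline, 3858 cold and 6641 CL cells remained, with a median of 3210 to 3837 unique molecular identifiers (UMIs, counts of captured transcripts) per cell. The doublet caller marked 4 cold barcodes, 0.104% of those that passed, so doublets remain in the cold library. Pairs of libraries shared 4 to 9 cell barcodes. Clusters were named by 27 fixed marker lists, without the members, and 9 classes had 100 or more cells in each library. These were fat progenitor-like (ASPC-like), endothelial-like, macrophage-like, monocyte-like, B cell-like and T cell-like cells, conventional dendritic cells of type 1 and type 2 (cDC1-like, cDC2-like) and mature dendritic cells (mature DC-like). A cluster of 25 cells (14 saline, 8 cold and 3 CL) was adipocyte-like and too small for a comparison. Levels are given as CPM, the UMIs of a gene per 1000000 UMIs of all cells of a class in a library. Summed over all cells, the 36 members made up 1868 CPM in the saline, 1065 CPM in the cold and 10506 CPM in the CL library.

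In the saline library the members were highest in monocyte-like, macrophage-like and plasmacytoid DC-like cells and lowest in B cell-like cells. Endothelial-like and ASPC-like cells lay between, above the other dendritic cell classes. Of 13 classes with 50 or more saline cells, the summed level was highest in monocyte-like cells at 3930 CPM (95% Poisson interval 3777 to 4088) and macrophage-like cells at 3902 CPM (3834 to 3970), whose intervals overlap. Plasmacytoid DC-like cells followed at 3662 CPM (3509 to 3819), below the macrophage-like interval and overlapping the monocyte-like one. Endothelial-like cells at 2179 CPM and ASPC-like cells at 2048 CPM had intervals that just touched. cDC2-like cells were at 1473 CPM and mature DC-like cells at 1022 CPM. Next came T cell-like (922 CPM), pericyte and smooth muscle-like (918 CPM) and NK cell-like (893 CPM) cells, which could not be told apart by their intervals, nor could NK cell-like from Schwann-like cells (774 CPM), nor Schwann-like from cDC1-like cells (766 CPM). B cell-like cells stood below all others at 482 CPM (458 to 507). Among the 9 main classes the highest sum was 8.15 times the lowest.

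**Figure D1:**
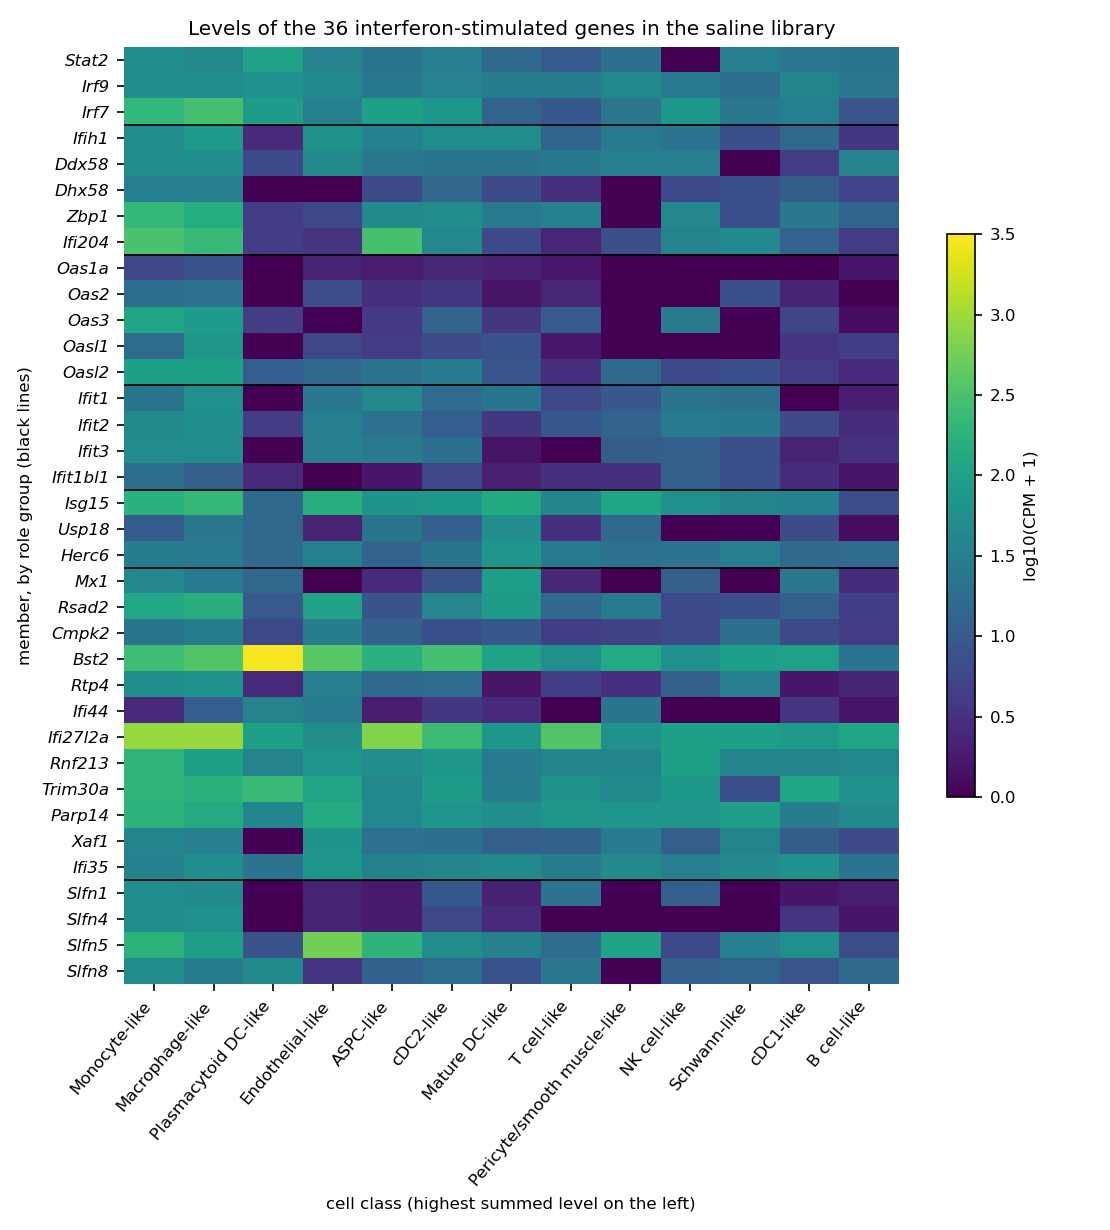
Level of each of the 36 members (rows, by role) in each of 13 cell classes (columns) of the saline library, as log10(CPM + 1) on the colour scale. The monocyte-like and macrophage-like columns are bright for most members, Bst2 is brightest in plasmacytoid DC-like cells and Slfn5 in endothelial-like cells.

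By single gene, 15 members were highest in macrophage-like and 10 in monocyte-like cells. Irf7, the interferon-induced factor that amplifies the response, was at 294 CPM in macrophage-like, 208 CPM in monocyte-like, 93.0 CPM in ASPC-like and 32.4 CPM in endothelial-like cells, and at 7.31 CPM in B cell-like cells. Isg15 was at 211 CPM in macrophage-like and 173 CPM in monocyte-like cells, with 162 CPM in endothelial-like and 134 CPM in mature DC-like cells close behind. Ifi27l2a, which encodes a small protein of the Ifi27 family, was at 905 CPM in macrophage-like, 898 CPM in monocyte-like and 682 CPM in ASPC-like cells, and at 52.9 CPM in endothelial-like cells. Among these genes the macrophage-like and monocyte-like levels were close to each other. Among members highest in these 2 classes, Oasl1 alone was 4-fold or more above the next class. It was at 70.8 CPM in macrophage-like cells and 15.9 CPM in monocyte-like cells, a ratio of 4.46. Smaller differences were seen for Ifit1 (56.3 and 22.2 CPM) and, in the other direction, Rnf213 (94.5 and 194 CPM). The highest member of the oligoadenylate synthetase group was Oas3 at 116 CPM in monocyte-like cells, and that of the IFIT group Ifit1 at 56.3 CPM in macrophage-like cells. The DNA sensor Ifi204, the highest of the sensors, was shared between monocyte-like (311 CPM) and ASPC-like (306 CPM) cells.

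The other members had their highest level outside these 2 classes. Bst2, which tethers virus particles to the cell surface and is a surface marker of mouse plasmacytoid dendritic cells, was at 2812 CPM in plasmacytoid DC-like cells, 7.34 times the next class, endothelial-like cells at 383 CPM. It made up 76.8% of the member UMIs of plasmacytoid DC-like cells, so the rank of that class rests on 1 gene. Stat2 (102 CPM), Irf9 (57.5 CPM), Ifi44 (35.5 CPM) and Trim30a (225 CPM) were also highest there. Slfn5 was at 566 CPM in endothelial-like and 191 CPM in ASPC-like cells, a ratio of 2.97, and made up 26.0% of the endothelial-like member UMIs. Xaf1 (63.7 CPM) and Ifi35 (67.3 CPM) were highest in endothelial-like cells as well. Mature DC-like cells had the highest Mx1 (90.3 CPM, against 41.3 CPM in the next class), Herc6 (67.9 against 33.6 CPM) and Usp18 (51.5 against 23.1 CPM), although their Ifit3 was at 0.547 CPM. C57BL/6 mice carry a truncated form of Mx1, so its RNA is not a measure of the intact protein. Irf9 and Ifi35 were within 4-fold of their highest level in all 13 classes.

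The summed level of the CL library was higher than in the saline library in every one of the 9 main classes, and by least in mature DC-like cells. cDC2-like cells were at 9402 against 1473 CPM, a log2 ratio of 2.67 (2.61 to 2.74), and cDC1-like cells at 4103 against 766 CPM, a log2 ratio of 2.42. ASPC-like cells were at 9428 against 2048 CPM (log2 ratio 2.20) and T cell-like cells at 4115 against 922 CPM (2.16). Macrophage-like and monocyte-like cells, already high in the saline library, reached 12889 and 12817 CPM, log2 ratios of 1.72 and 1.71. B cell-like cells were at 1141 against 482 CPM (1.24) and endothelial-like cells at 4735 against 2179 CPM (1.12). Mature DC-like cells were at 1561 against 1022 CPM, a log2 ratio of 0.61 (0.49 to 0.73). The median of all genes lay between -0.04 and 0.15 in these classes.

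In the cold library the summed level was lower in macrophage-like cells, at 1390 against 3902 CPM (log2 ratio -1.49, -1.57 to -1.41), and in monocyte-like cells, at 1846 against 3930 CPM (-1.09, -1.20 to -0.98). It was lower by less in ASPC-like cells, at 1308 against 2048 CPM (-0.65), and in cDC1-like cells, at 536 against 766 CPM (-0.51). The 5 other main classes lay between -0.23 and 0.04, among which the intervals of B cell-like (-0.34 to -0.13) and cDC2-like cells (-0.31 to -0.11) were below 0, with endothelial-like cells at 2079 against 2179 CPM and T cell-like cells at 949 against 922 CPM. Of the smaller classes, pericyte and smooth muscle-like cells had a summed log2 ratio of 0.45 (0.27 to 0.64) and plasmacytoid DC-like cells 0.22 (0.12 to 0.31). NK cell-like cells were at -0.50 and Schwann-like cells at -0.39. The CL and cold comparisons share the saline library, so they are set side by side and not correlated.

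**Figure D2:**
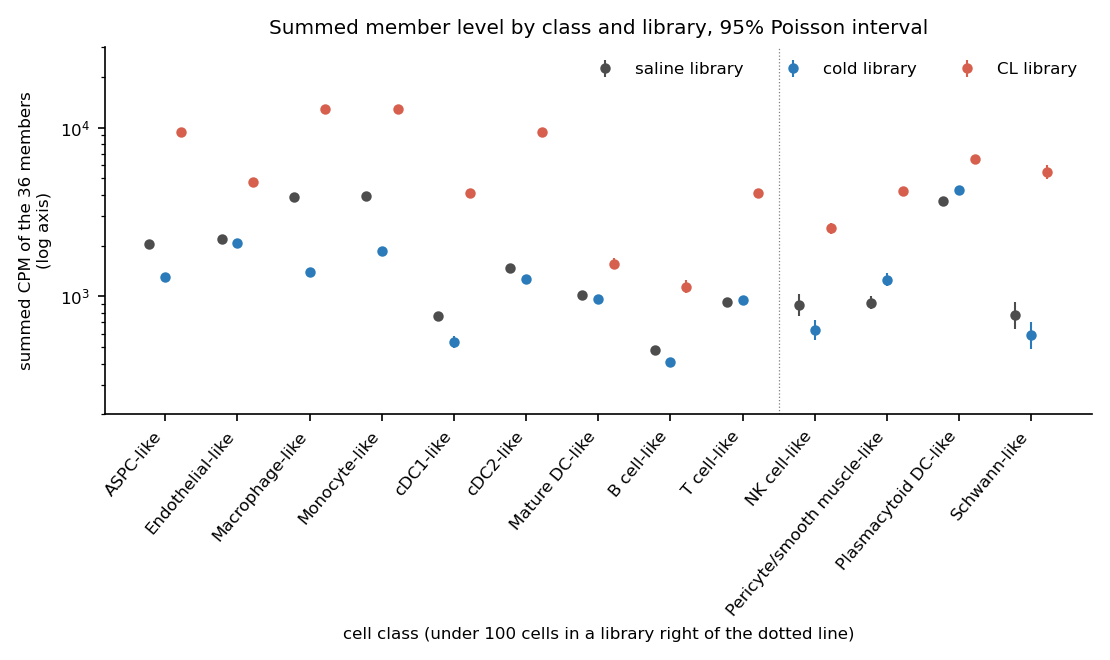
Summed level of the 36 members in CPM (log axis) in each class, by library, with 95% Poisson intervals for counting error. The CL points are the highest in all 13 classes, and the cold points lie farthest below saline in macrophage-like (log2 ratio -1.49) and monocyte-like cells (-1.09).

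The sums do not show whether few or many cells carried the genes. Each cell was therefore thinned to 1500 UMIs, and the share with 5 or more member UMIs was taken. In macrophage-like cells it was 44.0% in the saline, 11.6% in the cold and 95.9% in the CL library (66.5, 48.0 and 98.3% before thinning). In ASPC-like cells it was 18.1, 8.36 and 82.8% (79.1, 77.8 and 97.1% before thinning). In monocyte-like cells it was 39.2, 16.7 and 91.8% (63.5, 49.2 and 94.7%). In these 3 classes most CL cells thus carried the genes. The same held for cDC2-like cells at 80.4% in the CL library, against 10.1% in the saline library (91.3 and 38.8% before thinning), and less so for endothelial-like cells at 61.3 against 26.9% (70.9 and 52.4%). In cDC1-like and T cell-like cells the CL shares were lower, 47.2 and 43.4% (80.3 and 63.9% before thinning), against 3.26 and 4.05% in the saline library (47.9 and 19.9%). Mature DC-like cells were at 6.35, 3.72 and 13.1% (41.1, 44.1 and 40.3% before thinning). B cell-like cells were at 0.723, 0.299 and 4.51% (2.41, 3.26 and 8.66%). The cold share of cDC2-like cells, 16.6% (53.2% before thinning), was above the saline share while the CPM was below, so no order is read from it. Thinning left out 511 saline, 42 cold and 98 CL B cell-like cells with fewer UMIs, 73, 20 and 67 endothelial-like cells and at most 175 cells in the other main classes and libraries.

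**Figure D3:**
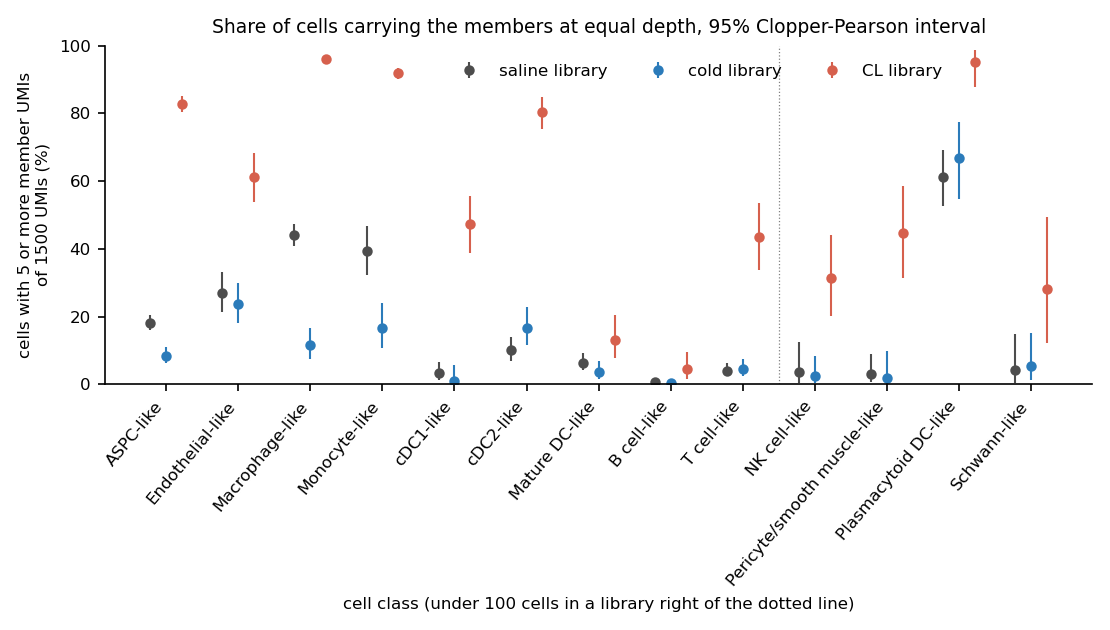
Share of cells (percent) with 5 or more member UMIs after thinning each cell to 1500 UMIs, by class and library, with 95% Clopper-Pearson intervals. The CL shares run from 4.51% in B cell-like to 95.9% in macrophage-like cells, and the cold shares of macrophage-like and monocyte-like cells lie below the saline ones.

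Within a class the UMIs were uneven in the saline library. The tenth of the thinned cells with the most member UMIs held 53.4% of them in cDC2-like cells and 33.5% in ASPC-like cells. The CL library had shares of 25.7 and 21.9% in the same classes. With few member UMIs per cell, counting alone raises this share. The saline and CL shares are therefore not read as a difference in unevenness.

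Gene by gene, a member was counted as higher or lower when its CPM differed by 2-fold or more, among members with 20 or more UMIs in the 2 libraries together. The share of all genes past the same fold in the same class is given beside each count. With CL, 36 of 36 members were higher in cDC2-like cells, where 6.49% of genes were higher. In macrophage-like cells 35 of 36 were higher (5.69% of genes) and in monocyte-like cells 35 of 36 (7.64% of genes), and in both Irf9 was the member that missed the fold. In ASPC-like cells 32 of 35 were higher (5.8% of genes), the 3 others being Slfn5, Ifi204 and Ifit2. In cDC1-like cells 29 of 32 were higher (5.44% of genes), the 3 others being Mx1, Trim30a and Irf9. In T cell-like cells 23 of 27 were higher (5.87% of genes) and in endothelial-like cells 19 of 26 (3.3% of genes). B cell-like cells had 8 of 16 (2.86% of genes) and mature DC-like cells 3 of 21 (3.5% of genes). No member was 2-fold lower in any of these classes, where 2.48 (ASPC-like), 6.38 (endothelial-like), 9.93 (macrophage-like), 4.0 (monocyte-like), 3.79 (cDC1-like), 5.54 (cDC2-like), 6.09 (mature DC-like), 7.66 (B cell-like) and 5.58% (T cell-like) of genes were lower. In the smaller classes 10 of 12 members were higher in NK cell-like (11.5% of genes) and 20 of 24 in pericyte and smooth muscle-like cells (6.25%). Plasmacytoid DC-like cells had 11 of 16 (6.26%) and Schwann-like cells 5 of 5 (5.91%). No member had more than 19 saline UMIs in NK cell-like or 15 in Schwann-like cells. Every member measured in these classes thus reached the minimum through CL UMIs, and no direction is read from their counts.

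A member that is low in the saline library can reach 20 UMIs only through the CL library, which favours higher calls. With the minimum set on the saline library alone, an alternative chosen after seeing the data, 24 of 24 members were higher in cDC2-like (3.79% of genes), 35 of 36 in macrophage-like (4.11%), 26 of 27 in monocyte-like (2.36%), 26 of 29 in ASPC-like (3.24%), 12 of 15 in cDC1-like (2.98%), 11 of 15 in T cell-like (3.69%), 15 of 22 in endothelial-like (1.26%), 6 of 13 in B cell-like (2.1%) and 2 of 19 in mature DC-like cells (2.23%).

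Several of these counts depended on how cells and UMIs were taken, that of macrophage-like cells most, as described by cluster below. With called doublets kept, the mature DC-like class held 141 in place of 129 CL cells, and 17 of its 27 measured members were higher. In T cell-like cells 12 of 20 were higher after the largest amount of free RNA that myeloid transcripts allow was subtracted, and 10 of 16 after thinning. In cDC1-like cells 14 of 15 were higher after thinning, with fewer measured. In cells with 1000 or more genes, 21 of 36 members were higher in monocyte-like cells and 16 of 19 in B cell-like cells, of which 40 CL cells were left. The subtraction of free RNA was chosen after seeing the data. No share of all genes is given under these settings.

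Irf7 and Ifi27l2a were the 2 members higher in all 9 main classes. Irf7 had 721 saline and 4515 CL UMIs in ASPC-like cells (93.0 and 632 CPM), 956 and 11854 in macrophage-like cells (294 and 1030 CPM), and 27 and 213 in endothelial-like cells (32.4 and 335 CPM). It had 12 and 105 UMIs in T cell-like cells (8.14 and 199 CPM) and 22 and 25 in mature DC-like cells (12.0 and 51.3 CPM). Its log2 ratio ran from 1.81 in macrophage-like cells, which had the highest saline level, to 4.61 (3.75 to 5.61) in T cell-like cells. Ifi27l2a rested on more UMIs, with 5292 and 20850 in ASPC-like cells (682 and 2918 CPM), 371 and 2878 in cDC2-like cells (250 and 2429 CPM) and 358 and 175 in B cell-like cells (114 and 417 CPM). Its log2 ratio ran from 1.54 in macrophage-like to 3.49 (3.21 to 3.77) in cDC1-like cells. In mature DC-like cells it was at 71.2 CPM in the saline and 308 CPM in the CL library, a log2 ratio of 2.11 (1.76 to 2.46). Irf7 (2.09) and the apoptosis-linked Xaf1 (1.66) were the 2 other members past the fold there.

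Other members were measured in fewer classes. Ifit3, Cmpk2 (a mitochondrial nucleotide kinase next to Rsad2) and Rtp4 (a receptor chaperone) were higher in 7 of 7 classes, Oas3, Ifi44 and Slfn1 in 6 of 6, Dhx58 and Oasl1 in 5 of 5, Oas1a, Oas2 and Slfn4 in 4 of 4 and Ifit1bl1 in 3 of 3. These full counts are in part set by the UMI minimum. With 20 UMIs in the saline library, Ifit3 and Rtp4 were measured and higher in 5 classes, Dhx58 in 4, Cmpk2, Oas3 and Slfn1 in 3, Ifi44, Oasl1 and Slfn4 in 2 and Oas1a, Oas2 and Ifit1bl1 in 1. Zbp1, Bst2 and Ifi35 were higher in 8 of 9 classes, Oasl2, Ifit1 and Rsad2 in 7 of 8 and Usp18 in 6 of 7, and for each of these 7 genes the class that missed the fold was mature DC-like cells. Mature DC-like cells held Usp18, Herc6 and Mx1 at their highest saline level, and in the CL library these stood at 51.3 against 51.5 CPM, 78.0 against 67.9 CPM and 71.8 against 90.3 CPM. Ifi204 and Ifit2 were higher in 6 of 7 classes, and for both the exception was ASPC-like cells.

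Other members were higher in part of the classes. Stat2, Isg15, Rnf213 (a large ubiquitin ligase) and Xaf1 were higher in 7 of 9. Isg15 was at 162 CPM in the saline and 298 CPM in the CL library in endothelial-like cells (135 and 189 UMIs), a log2 ratio of 0.87 (0.55 to 1.20), whereas in ASPC-like cells it was at 64.0 and 842 CPM (496 and 6015 UMIs), a ratio of 3.72 (3.59 to 3.85). Ifih1 was higher in 6 of 8, Ddx58, Herc6 and Slfn5 in 6 of 9, Slfn8 in 5 of 7, Mx1 in 4 of 6, and Trim30a and Parp14 in 5 of 9. Irf9 was higher in 4 of 9 classes, with log2 ratios from 0.54 to 1.49. Slfn5 stood apart in stroma and vessels. It was at 566 and 549 CPM in endothelial-like cells (471 and 349 UMIs), a log2 ratio of -0.04 (-0.25 to 0.16), and at 191 and 271 CPM in ASPC-like cells (0.51). In cDC2-like cells it was at 53.3 and 332 CPM, a ratio of 2.64 (2.29 to 3.01). Its 2 highest saline classes were thus 2 of the 3 with ratios short of the fold, the other being mature DC-like cells at 0.12.

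**Figure D4:**
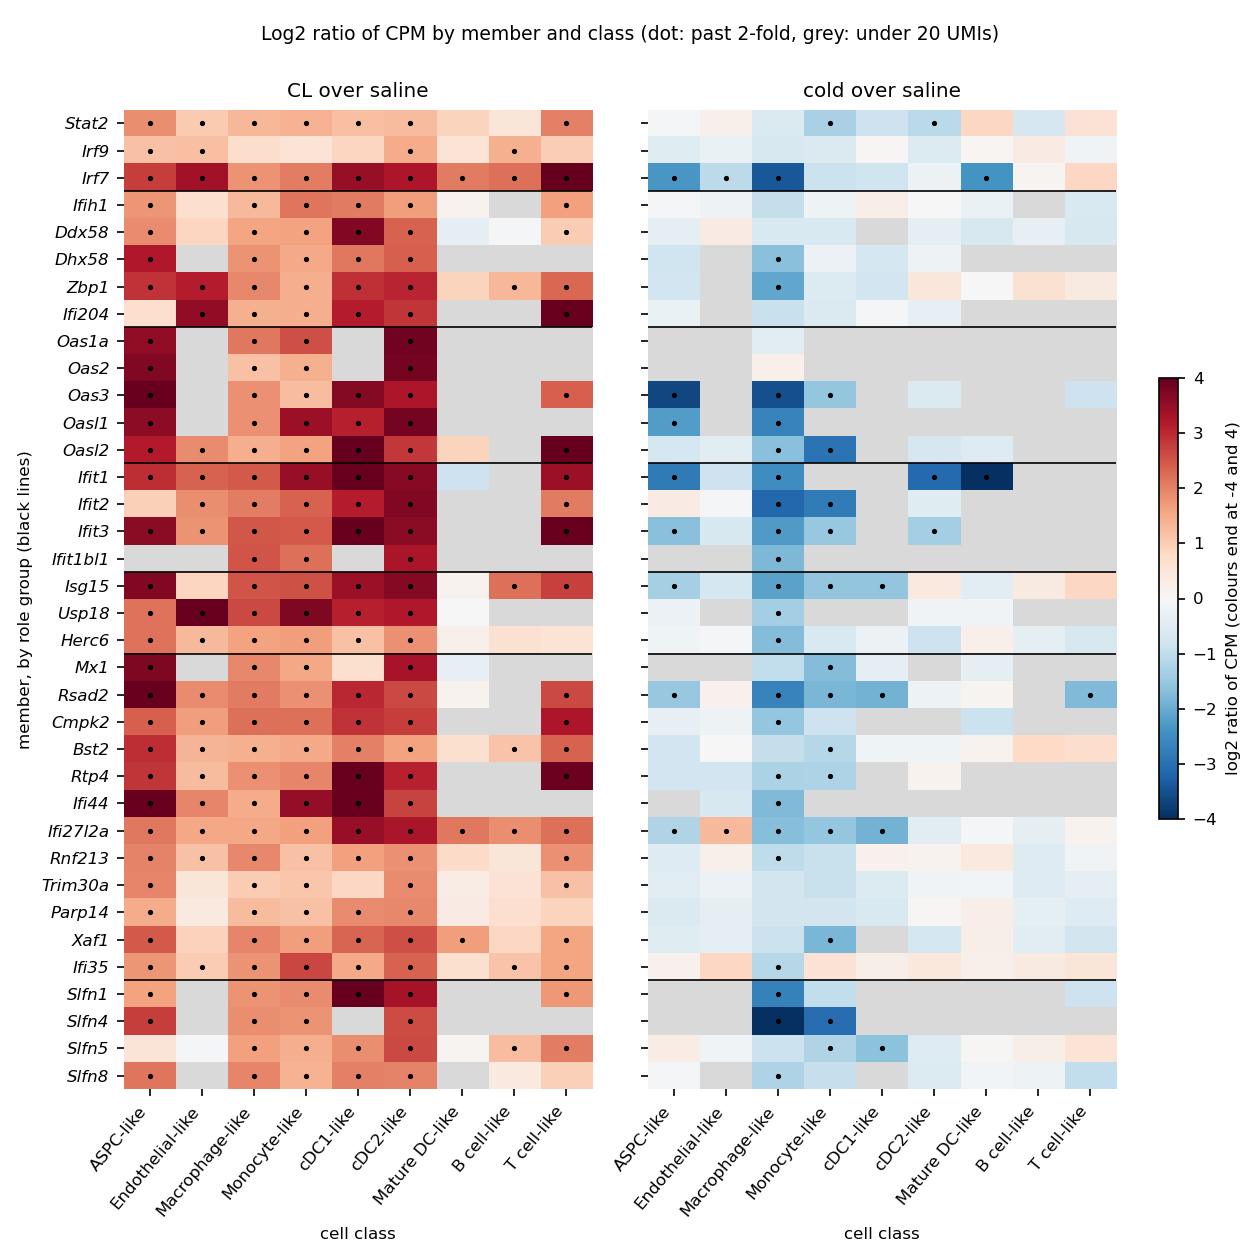
Log2 ratio of CPM for each of the 36 members (rows, by role) in the 9 main classes (columns), CL over saline on the left and cold over saline on the right, with a dot past 2-fold and grey under 20 UMIs in the 2 libraries together. The left panel is red in nearly all measured cells but pale in the mature DC-like column, and the right panel is blue mainly in the macrophage-like and monocyte-like columns.

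The genes with the largest ratios, ranked by the interval bound nearer 0 so that few UMIs count for less, differed by class. In ASPC-like cells Ifi44 was at 0.903 and 29.4 CPM (7 and 210 UMIs), a log2 ratio of 5.03 (3.96 to 6.36), and Rsad2 at 7.22 and 119 CPM (56 and 852 UMIs), a ratio of 4.05 (3.65 to 4.46). In endothelial-like cells Usp18 went from 1 to 34 UMIs (5.48, 2.90 to 10.82). Ifit1 there was at 24.0 and 124 CPM (2.37). In macrophage-like cells Isg15 (2.52, 211 and 1211 CPM), Usp18 (2.63) and Ifit3 (2.48) ranked highest. In monocyte-like cells Ifit1 (14 and 900 UMIs, 3.47), Usp18 (6 and 459 UMIs, 3.72) and Oasl1 (10 and 621 UMIs, 3.42) ranked highest, while Ifi44 at 3.53 rested on 1 saline UMI. In cDC1-like cells Rtp4 went from 1 to 37 UMIs (6.06, 3.49 to 11.40) and Ifit3 from 2 to 55 (5.63). Ifit1 went from 0 to 35 UMIs, at least 21.0-fold higher. In cDC2-like cells Isg15 was at 73.5 and 935 CPM (3.67) and Ifit3 at 18.2 and 224 CPM (3.62), and Oas1a, Oasl1, Oas2 and Ifit2, with 2 to 15 saline UMIs, had ratios of 3.70 to 3.85. In B cell-like cells Isg15 was at 5.72 and 26.2 CPM (18 and 11 UMIs, 2.20, 0.97 to 3.36). In T cell-like cells Ifi204 went from 2 to 47 UMIs (6.04), Oasl2 from 3 to 26 and Ifit3 from 0 to 39, at least 36.4-fold higher.

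Levels in lymphocytes sit beside transcripts used as markers of other cells. The macrophage transcripts Lyz2, C1qa, C1qb and C1qc summed to 278 CPM in saline, 104 CPM in cold and 1586 CPM in CL T cell-like cells. If all of these came from free RNA, free RNA could account for up to 18.1, 5.07 and 41.8% of the member UMIs there. The 7 monocyte markers summed to 210, 285 and 1410 CPM in T cell-like cells, with 2 markers at 0 in the saline and the cold library and 1 in the CL library. The bound was 10.3, 3.51 and 11.5% in B cell-like cells, and at most 5.29% in endothelial-like and 3.01% in ASPC-like cells. In cDC2-like cells the same markers summed to 1222, 1848 and 3174 CPM with at most 1 at 0. They summed to 577, 632 and 1788 CPM in cDC1-like cells, with 2 at 0 in the cold library, and to 1056, 902 and 2309 CPM in ASPC-like cells, with 1 at 0 in the saline and the cold library. In saline ASPC-like cells the 8 macrophage markers summed to only 55.6 CPM. The monocyte marker sums are therefore not read as a measure of RNA from other cells. The part of these markers in the member levels was not tested.

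By role, the order of the CL ratios differed between classes. In ASPC-like cells the median log2 ratio was 3.59 over 5 oligoadenylate synthetase members, 2.95 over 3 IFIT members, 2.19 over Isg15 and its enzymes, 2.41 over 12 other effectors, 1.89 over 5 sensors, 1.89 over 4 Schlafen members and 1.86 over 3 transcription factors. In macrophage-like cells the order was different, with 2.52 for Isg15 and its enzymes, 2.46 for the IFIT family, 1.84 for oligoadenylate synthetases, 1.83 for Schlafen members, 1.81 for other effectors, 1.57 for sensors and 1.33 for transcription factors. In endothelial-like cells the 3 IFIT members had a median of 1.87, the 11 other effectors 1.27 and the 3 transcription factors 1.21.

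In the cold library the lower members were concentrated in macrophage-like and monocyte-like cells. Of 36 members 23 were lower in macrophage-like cells (4.69% of genes lower) and of 29 members 14 in monocyte-like cells (4.87%). In ASPC-like cells 8 of 29 were lower (2.27% of genes). The other classes had 4 of 18 in cDC1-like (3.15%), 3 of 27 in cDC2-like (3.25%), 2 of 23 in mature DC-like (2.22%), 1 of 23 in endothelial-like (4.75%), 1 of 20 in T cell-like (2.99%) and 0 of 16 in B cell-like cells (3.23%). In endothelial-like, T cell-like and B cell-like cells these shares were near or below the background. In the 9 main classes the only member higher in the cold library was Ifi27l2a in endothelial-like cells, 1 of 23 members (3.51% of genes higher). No member was higher in ASPC-like (1.92% of genes higher), macrophage-like (3.68%), monocyte-like (3.11%), cDC1-like (3.16%), cDC2-like (2.76%), mature DC-like (3.07%), B cell-like (1.71%) and T cell-like cells (3.73%). The smaller classes differed. In pericyte and smooth muscle-like cells 4 of 14 members were higher (383 of 6198 genes), namely Slfn5, Rsad2, Ifih1 and Ddx58, and 1 was lower (443 genes). Plasmacytoid DC-like cells had 1 of 12 higher (343 of 5255 genes) and 2 lower (257 genes). In NK cell-like cells 2 of 9 were lower (209 of 3351 genes) and in Schwann-like cells 1 of 3 (211 of 2769 genes). The monocyte-like count moved with the clustering, to 3 of 23 with doublets kept and to 28 of 34 when the members were used for clustering. Shares of all genes are not given for those settings. The ASPC-like count was 2 of 27 in its largest cluster. A member low in the cold library can reach 20 UMIs through the saline library alone, so the UMI minimum can favour lower calls.

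In macrophage-like cells Irf7 was at 294 CPM in the saline and 28.1 CPM in the cold library (956 and 28 UMIs), a log2 ratio of -3.39 (-3.99 to -2.85). Oas3 had 262 saline and 7 cold UMIs (-3.52, -4.85 to -2.46), Ifit2 174 and 6 (-3.15), Oasl1 230 and 11 (-2.68) and Rsad2 519 and 25 (-2.67). Slfn4, a myeloid Schlafen gene, had 183 saline and 0 cold UMIs, at least 18.7-fold lower. Isg15 was at 211 and 48.1 CPM (-2.13) and Ifi27l2a at 905 and 281 CPM (-1.69). Ifi204 (-0.90), Bst2 (-0.96), Ifih1 (-0.94), Irf9 (-0.64) and Ddx58 (-0.62) were among those below the saline level without reaching the fold, and Oas2 was at 19.1 and 22.1 CPM (0.21, -0.56 to 0.93).

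In monocyte-like cells Oasl2 was at 95.2 CPM in the saline and 12.4 CPM in the cold library (60 and 6 UMIs, a log2 ratio of -2.94). Slfn4 had 32 and 3 UMIs (-3.03, -5.39 to -1.36) and Ifit2 27 and 3 (-2.79). Ifi27l2a was at 898 and 310 CPM (-1.53, -1.80 to -1.27) and Rsad2 at 124 and 35.1 CPM (-1.82). Irf7 was at 208 and 114 CPM in monocyte-like cells (131 and 55 UMIs), a ratio of -0.87 (-1.35 to -0.41).

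In ASPC-like cells Ifi27l2a was at 682 CPM in the saline and 298 CPM in the cold library (5292 and 1301 UMIs), a log2 ratio of -1.20 (-1.28 to -1.11). Isg15 was at 64.0 and 25.4 CPM (-1.33), and Oas3 and Oasl1 had 22 and 25 saline UMIs against 1 and 3 cold UMIs. Irf7, Ifit1, Ifit3 and Rsad2 were the other 4 lower members. Slfn5, Ifit2 and Ifi35 were not lower, at 191 and 236 CPM (0.31, 0.19 to 0.42), 20.1 and 25.4 CPM (0.34) and 33.3 and 37.8 CPM (0.18). Ifit2 and Ifit3 lie next to each other on chromosome 19, and the cold library held 111 UMIs of Ifit2 and 37 of Ifit3, against 156 and 209 in the saline library.

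Single members were lower elsewhere. In cDC1-like cells Ifi27l2a (-1.88), Slfn5 (-1.63), Isg15 (-1.59) and Rsad2 (-1.88, from 18 to 3 UMIs) were lower. In cDC2-like cells Ifit1 went from 23 to 2 UMIs (-3.11), with Ifit3 at -1.34 and Stat2 at -1.08. In mature DC-like cells Ifit1 went from 40 to 1 UMI (-4.85, -10.19 to -2.29) and Irf7 from 22 to 3 (-2.40). In T cell-like cells Rsad2 went from 21 to 7 UMIs (-1.77), while Isg15 was at 38.7 and 68.8 CPM (0.83) and Bst2 at 56.3 and 91.6 CPM (0.70), both without reaching the fold. In B cell-like cells Bst2 had 64 and 138 UMIs (0.78). In endothelial-like cells Irf7 had 27 and 15 UMIs (-1.04, -2.06 to -0.08), Isg15 was at 162 and 98.6 CPM (-0.72) and Ifi35 at 67.3 and 119 CPM (0.82). Ifi27l2a, lower in macrophage-like, monocyte-like, cDC1-like and ASPC-like cells, was higher in endothelial-like cells. It was at 52.9 CPM in the saline and 131 CPM in the cold library (44 and 125 UMIs), a log2 ratio of 1.31 (0.80 to 1.84).

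Across classes, the members lower most often in the cold library were Rsad2 (5 of 8 classes), Ifit1 and Ifit3 (4 of 5 each), Irf7, Isg15 and Ifi27l2a (4 of 9 each) and Oas3 (3 of 5). Oasl1 and Slfn4 were lower in both classes where they were measured. These counts are in part set by the UMI minimum, which members low in the cold library reached through their saline UMIs. Oasl1 had 25 saline and 3 cold UMIs in ASPC-like cells, and Slfn4 32 and 3 in monocyte-like cells. Dhx58 (1 of 5), Zbp1 (1 of 8), Usp18 (1 of 4), Herc6 (1 of 9), Cmpk2 (1 of 5), Rnf213 (1 of 9), Ifi35 (1 of 9) and Slfn8 (1 of 7) were lower in macrophage-like cells only, and Mx1 (1 of 4), Bst2 (1 of 9) and Xaf1 (1 of 8) in monocyte-like cells only. Ifih1, Ddx58, Irf9, Trim30a, Parp14 and Ifi204 were lower in none of the 5 to 9 classes where they were measured.

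The macrophage-like class was made of different clusters in the 3 libraries, and the members differed between them. Cluster 10, led by Retnla, Fcna and Cd209f, held 572 saline, 172 cold and 118 CL cells. Cluster 15, led by Irg1, Saa3 and Clec4e, held 152 saline, 3 cold and 1914 CL cells. None of its 10 leading genes was a macrophage marker. Its mean log2 ratio over the other cells was 1.16 for macrophage and 0.66 for monocyte markers, so its name is uncertain. The macrophage-like class held 2920 CL cells, but 1643 with doublets kept and 734 with a doublet score limit of 0.2. Under these 2 settings 1743 and 2500 CL cells had no class name, against 12. Cluster 17, led by C1qb, Ms4a7 and Lyz1, held 213, 29 and 784. The summed member level in the saline library was 2780 CPM in cluster 10, 4277 CPM in cluster 17 and 7168 CPM in cluster 15. The CL library had 5684, 10968 and 13968 CPM. The member level and the cluster make-up moved together, since cluster 15 was 15.5% of saline and 65.5% of CL macrophage-like cells.

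Within single macrophage-like clusters fewer members passed the fold in the CL library than in the whole class. Of the members 9 of 33 were higher in cluster 10 (4.47% of genes), 24 of 36 in cluster 17 (6.39%) and 12 of 36 in cluster 15 (6.25%). With the saline mix of clusters kept in both libraries, an alternative chosen after seeing the data, 14 of 36 were higher in place of 35, with a median log2 ratio of 0.96 in place of 1.82. No share of all genes is given with the mix kept, here or below. In cluster 10 Ifi27l2a was at 969 and 2624 CPM (1.44), Irf7 at 99.8 and 254 CPM (1.35) and Isg15 at 120 and 141 CPM (0.23, -0.23 to 0.66). In the cold library 7 of 32 members were lower in cluster 10 (3.19% of genes), and 30 of 32 in cluster 17 (13.4%), which had 29 cold cells and a larger share than the whole class. With the saline mix kept, 22 of 35 were lower, and the 3 cold cells of cluster 15 were left out. In cluster 10 Irf7 was at 99.8 CPM in the saline and 26.2 CPM in the cold library (-1.93), Oasl1 at 55.7 and 13.9 CPM, Ifit1 at 41.1 and 7.71 CPM (-2.42) and Ifi27l2a at 969 and 376 CPM (-1.37). Usp18 (0.44), Rnf213 (0.06) and Ifi35 (0.03) were not below the saline level there, unlike in the whole class. The monocyte markers in macrophage-like cells summed to 1047, 189 and 4194 CPM in the saline, cold and CL library, and the 8 macrophage markers to 10106, 14071 and 6406 CPM.

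**Figure D5:**
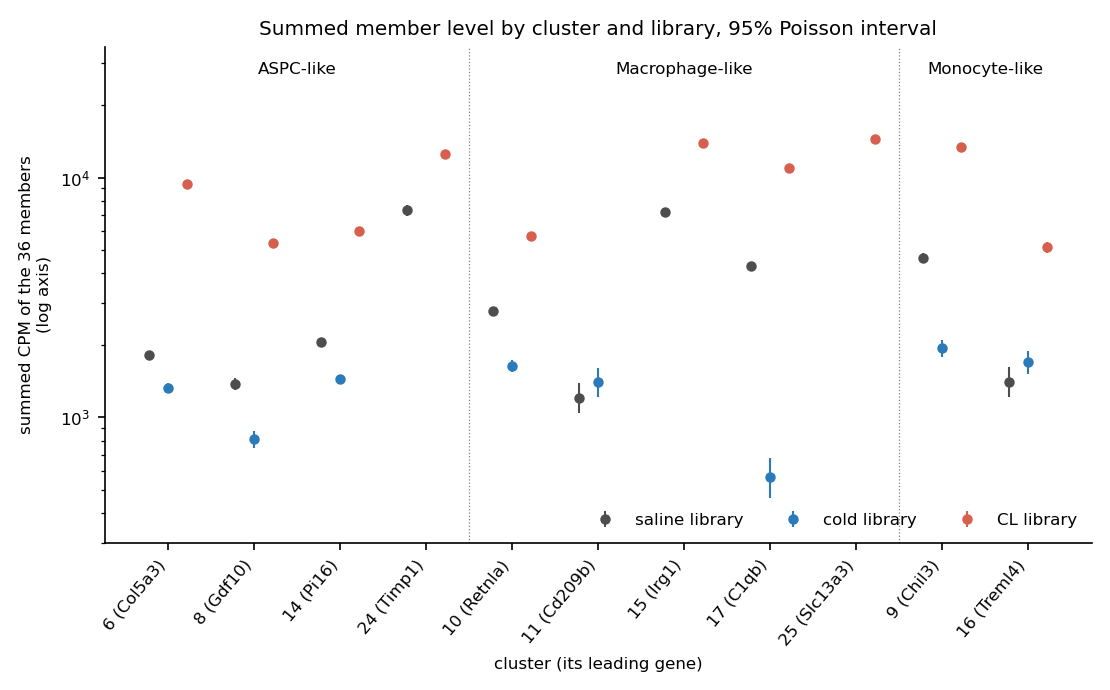
Summed level of the 36 members in CPM (log axis) in the clusters of ASPC-like, macrophage-like and monocyte-like cells with 20 or more cells, by library, with 95% Poisson intervals for counting error. Clusters 15 and 24 have no cold point, and in the saline library they lie above the other clusters of their class.

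Monocyte-like cells were split in the same way. Cluster 9, led by Chil3, Thbs1 and Ccr2, was at 4630 CPM in the saline, 1945 CPM in the cold and 13354 CPM in the CL library, and held 147, 74 and 1055 cells. In it 18 of 28 members were lower in the cold (5.99% of genes) and 34 of 36 higher in the CL library (8.14%). Cluster 16, led by Treml4, Ear2 and Itgal, was at 1409, 1699 and 5115 CPM, so that its cold level was not below its saline level.

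Among ASPC-like clusters, the saline level was 1826 CPM in cluster 6 (led by Col5a3), 1383 CPM in cluster 8 (Gdf10), 2071 CPM in cluster 14 (Pi16) and 7301 CPM in cluster 24 (Timp1, Prg4 and Cxcl5). Cluster 14 held 56.6% of saline and 56.9% of cold but 24.0% of CL cells, and cluster 24 held 26 saline, 0 cold and 375 CL cells. In the CL library clusters 6, 8, 14 and 24 were at 9384, 5314, 5984 and 12492 CPM. Of the members 31 of 33 were higher in cluster 6 (6.69% of genes), 21 of 25 in cluster 8 (4.07%), 22 of 29 in cluster 14 (2.83%) and 12 of 34 in cluster 24 (10.6%). With the saline mix of clusters kept, 31 of 35 were higher. In the cold library 5 of 23 members were lower in cluster 6 (3.34% of genes), 5 of 17 in cluster 8 (4.31%) and 2 of 27 in cluster 14 (1.95%). In the larger endothelial-like cluster, cluster 0 (Fabp4, Gpihbp1 and Rbp7), the sums were 2512, 2191 and 5095 CPM, with 2 of 21 members lower in the cold (6.42% of genes) and 18 of 25 higher in the CL library (4.27%). Cluster 31, of neutrophil-like cells, was at 1852 CPM in 29 cold and 17149 CPM in 47 CL cells.

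The ligands of the pathway were nearly absent from the libraries. All 20 type I and type III interferon genes listed gave 8 UMIs in the saline, 1 in the cold and 15 in the CL library. Ifnb1, the β interferon, made up 8, 0 and 12 of these, of which 7, 0 and 10 lay in macrophage-like cells. Ifng, the type II interferon, had 126, 355 and 122 UMIs, of which 52, 184 and 39 lay in T cell-like and 71, 165 and 81 in NK cell-like cells. Of the 6 receptor genes listed, 5 were measured in each main class and at most 1 passed the fold in any of them. Ifnar1, a chain of the type I receptor, was at 32.4 CPM in the saline and 75.6 CPM in the CL library in endothelial-like cells (1.22, 0.51 to 1.96). Il10rb, a chain of the type III receptor, was at 12.2 CPM in the saline, 25.7 CPM in the cold and 49.3 CPM in the CL library in T cell-like cells.

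Of the other signal transducers listed, Irf8, a factor of myeloid development, had a cold over saline log2 ratio of -1.42 in ASPC-like cells, and Irf1, an interferon-induced factor, a CL over saline ratio of 1.87 in cDC2-like cells. Among 7 negative regulators, Socs1, a suppressor of receptor kinases, was at 79.3 and 29.5 CPM in ASPC-like cells of the saline and cold library (-1.42). Socs3 was lower in endothelial-like cells of both, at 342 CPM in the saline, 108 CPM in the cold and 99.2 CPM in the CL library. It was also lower in CL ASPC-like cells (-1.16). T cell-like cells went the other way, with Socs3 at 34.6, 76.6 and 85.4 CPM in the saline, cold and CL library. Socs1 there was at 18.3, 42.5 and 45.5 CPM, and in cDC2-like cells at 5.39, 17.9 and 13.5 CPM. Among 12 genes of nucleic acid sensing, Myd88, Ikbke and Mb21d1 (cGAS) were higher in CL macrophage-like and monocyte-like cells, with log2 ratios of 1.04 to 1.49. Myd88 was also higher in cDC1-like (1.69), cDC2-like (1.53), mature DC-like (1.53), T cell-like (1.24) and B cell-like cells (1.02). Mb21d1 was also higher in cDC1-like (1.22), cDC2-like (1.32) and T cell-like cells (1.40). Only B cell-like cells had a listed gene lower with CL, 1 of 7 (7.66% of all genes lower), beside 3 higher (2.86%).

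A further list of 54 type I interferon-stimulated genes, of which 46 were in the matrices, was counted in the same way. This list and the interferon gamma list below were chosen with earlier results of these data known. Genes low in the saline library could enter through CL UMIs, which favours higher calls. No count with the minimum on the saline library alone is given for these lists. With CL, 30 of 39 were higher in ASPC-like (5.8% of all genes), 31 of 44 in macrophage-like (5.69%), 32 of 43 in monocyte-like (7.64%), 24 of 38 in cDC1-like (5.44%), 35 of 38 in cDC2-like (6.49%) and 16 of 33 in T cell-like cells (5.87%), against 6 of 28 in endothelial-like (3.3%), 8 of 29 in mature DC-like (3.5%) and 5 of 29 in B cell-like cells (2.86%). In the cold library 15 of 38 were lower in macrophage-like (4.69% of all genes), 7 of 36 in ASPC-like (2.27%) and 7 of 32 in monocyte-like cells (4.87%). The other 6 classes had 0 to 2 lower, near the shares of all genes of 2.22 to 4.75%. Ms4a4c had 878 saline and 15 cold UMIs in macrophage-like cells (-4.17), and Isg20, a nuclease, 51 saline and 1454 CL UMIs (3.01). Of 33 genes that lean to interferon gamma, 31 were in the matrices. With CL, 25 of 25 were higher in ASPC-like cells (5.8% of all genes), with a median log2 ratio of 2.18 and the chemokine Cxcl9 at 62.9 and 846 CPM (3.75). In macrophage-like cells 16 of 27 were higher (5.69%), in cDC2-like 15 of 25 (6.49%) and in monocyte-like cells 11 of 25 (7.64%). Fewer were higher in T cell-like (7 of 25, 5.87%), cDC1-like (4 of 19, 5.44%) and endothelial-like cells (4 of 25, 3.3%). B cell-like cells had 3 of 19 (2.86%) and mature DC-like cells 1 of 21 (3.5%). With CL, 1 listed gene was lower in each of cDC1-like (3.79% of all genes lower), cDC2-like (5.54%) and B cell-like cells (7.66%). In cDC1-like cells it was Cxcl9, with 611 saline and 159 CL UMIs (-1.09). In the cold library 3 of 26 were lower (4.69% of all genes) and 2 higher (3.68%) in macrophage-like cells, where Cxcl10 had 809 saline and 45 cold UMIs (-2.46) and Cxcl9 171 and 162 (1.63). With cold 6 of 22 were lower in ASPC-like (2.27%) and 5 of 23 in endothelial-like cells (4.75%), with 0 higher in both. cDC2-like cells had 5 of 22 higher (2.76%) and monocyte-like cells 3 of 20 (3.11%), with 0 lower in both. The other main classes had 0 to 2 lower (2.22 to 3.23% of all genes) and 0 to 2 higher (1.71 to 3.73%).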

How the data were processed

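The series is single-cell RNA-seq (10x, 3' end) of the inguinal stromal vascular fraction of saline-treated, cold-exposed and CL 316,243-treated mice, 1 library each. Whole-number UMI counts per gene and barcode were deposited by the authors, made with Cell Ranger 3.0.2 on mm10 per the submitters' processing notes. Counts of 3' ends do not scale with gene length. The 3 libraries held 7674, 5050 and 7943 barcodes and 25875379, 19899223 and 29323106 UMIs. Barcodes with at least 500 genes and at most 15% mitochondrial UMIs were kept, and doublets called by Scrublet in scanpy 1.11.5 were removed (86, 4 and 64). Cells were scaled to 10000 UMIs, logged and clustered together (2000 variable genes without the members, 30 components, 15 neighbours, Leiden resolution 1), and clusters were named from fixed marker lists.

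UMIs were summed per class and library and given as CPM. With 1 library per group no test was made. Intervals are 95% Poisson, Clopper-Pearson or, for ratios, conditional binomial (scipy 1.17.1), and cover counting error only. A gene was called at a 2-fold difference with at least 20 UMIs in both libraries together. A gene with 0 UMIs was set to a floor of 3 counts in that class and library, which gives a bound. The ratio computation was tested on simulated data. Named genes were all members by role; in the saline library the highest member of each role group and those at least 4-fold above the next class; per main class up to 5 lowest and 3 highest ratios by the interval bound nearer 0; members past the fold in all, all but 1 or only 1 of the classes measured; and up to 3 genes per other pathway list. The members and lists were chosen with earlier results of these data known. Alternatives changed the cell filters, doublet handling, clustering, UMI minimum, fold, depth and centring. Barcodes left out by the filters are described in the closing section. Promoter sequences of 9 members and protein sequences were not used here, and 1 gene of the signal transducer list is not reported here.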

Additional observations from a re-analysis of the deposited data

Results flagged for a closer look

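Ifi27l2a differed between classes in the direction of its cold over saline log2 ratio, at -1.20 in ASPC-like, -1.69 in macrophage-like, -1.53 in monocyte-like and -1.88 in cDC1-like cells but 1.31 in endothelial-like cells. Each class was 1 library per condition, and the difference was not tested. Neutrophil markers in endothelial-like cells summed to 0 CPM in the saline and 3.15 CPM in the cold library.

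Barcodes that the filters left out carried the members too. Those with fewer than 500 genes had a summed member level of 5613.87 CPM in the CL library, against 837 CPM in the saline and 552 CPM in the cold library. Neutrophil markers in the same barcodes summed to 3784, 482 and 113 CPM, and their part in the member level was not tested. Barcodes with more than 15% mitochondrial UMIs were at 6301.85 CPM in the CL and 1227.8 CPM in the cold library, against 922 CPM in the saline library.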

How the results depend on the processing

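No paired analysis was possible because the labels give no replicate numbers and each condition is 1 library. Of the gene ratios recomputed under 14 planned and 4 added alternatives, 3404 stayed within their counting interval, 514 moved and 5 reversed. The added alternatives (20 UMIs in the saline library alone, cluster mix held at saline shares, free RNA subtracted, the macrophage-like cluster with most saline cells) were chosen after seeing the data. The reversed cold ratios were Usp18 at 0.44, Rnf213 at 0.0573 and Ifi35 at 0.0272 in that macrophage-like cluster, and Ifit3 at 0.19 and Rtp4 at 0.0897 in monocyte-like cells with at most 5% mitochondrial UMIs. Where no construction shows it, the cause was not tested.

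For most alternatives no share of all genes past the fold is given, and the number of members measured often differed. The counts here and in the next paragraph thus show only how far each count moved. For members lower in the cold library, a fold of 1.5 gave 13 in ASPC-like, 6 in endothelial-like, 24 in monocyte-like, 9 in cDC1-like, 7 in cDC2-like, 4 in mature DC-like, 1 in B cell-like and 8 in T cell-like cells. The largest cluster gave 2 in ASPC-like, 2 in endothelial-like and 3 in T cell-like cells, and the macrophage-like cluster with most saline cells gave 7. The largest macrophage-like cluster had too few cold cells for a value. Keeping doublets gave 2 in endothelial-like and 3 in monocyte-like cells. A doublet limit of 0.2 gave 2, 3 and, in T cell-like cells, 2. At most 5% mitochondrial UMIs gave 4 in monocyte-like, 7 in cDC1-like and 0 in T cell-like cells. At least 1000 genes gave 0 in endothelial-like, 1 in cDC2-like, 8 in B cell-like and 2 in T cell-like cells. Clustering with the members gave 28 in monocyte-like and 3 in T cell-like cells, and resolution 0.5 gave 4 and 2. Thinning gave 7 in monocyte-like, 1 in cDC1-like, 1 in cDC2-like and 0 in mature DC-like cells. A minimum of 50 UMIs gave 0 in endothelial-like, 7 in monocyte-like, 1 in cDC2-like, 0 in mature DC-like and 0 in T cell-like cells. A minimum of 10 UMIs gave 4 in B cell-like and 2 in T cell-like cells, and centring and free RNA subtraction each gave 2 in T cell-like cells. Members higher in the cold library over the main classes numbered 2 with doublets kept, at limit 0.2 or at 10 UMIs, 3 at 5% mitochondrial UMIs or in the largest clusters, 7 after thinning and 8 at 1000 genes or a fold of 1.5.

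For members higher in the CL library, macrophage-like cells had 12 in the largest cluster, 14 with the mix held and 9 in the cluster with most saline cells. Monocyte-like cells had 21 at 1000 genes and cDC1-like cells 14 after thinning and 12 with 20 UMIs in the saline library. Mature DC-like cells had 17 with doublets kept, 6 at 5% mitochondrial UMIs, 5 at 1000 genes, 6 when clustered with the members, 1 at 50 UMIs, 6 at 10 UMIs and 9 at a fold of 1.5. B cell-like cells had 16 at 1000 genes, 5 at 50 and 15 at 10 UMIs. T cell-like cells had 14 at 5% mitochondrial UMIs, 10 after thinning, 12 at 50 UMIs, 12 with free RNA subtracted and 11 with 20 UMIs in the saline library. A single member was lower (1) at limit 0.2, after thinning and at a fold of 1.5. The highest over the lowest saline sum was 15.05 (8.15 over whole classes) in the largest clusters.

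The main limits are 1 library per condition, unlike cluster make-up between libraries, doublets left in the cold library, and few UMIs for low members in lymphocytes.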
